A study of Rattus norvegicus with 9 samples.

Results

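The genes of retinoic acid synthesis and reception were followed through a rat model of limb pain and its treatment by electroacupuncture (EA). The set was made up of 9 symbols, namely the retinaldehyde dehydrogenases Aldh1a1, Aldh1a2 and Aldh1a3, the retinoic acid receptors Rara, Rarb and Rarg, the binding proteins Crabp1 and Crabp2, and the retinol transporter Stra6. All 9 were found by symbol among the 20413 genes of the expression table, each on 1 row. Aldh1a1 and Aldh1a2 were chosen for their lower values after EA than in the untreated model, so that their differences, which all rest on CPIP or CPIP+EA values used in that choice, are given as a description, with no test. RNA-Seq was carried out on the right (ipsilateral) lumbar dorsal root ganglia (DRGs) L4-6 of male Sprague Dawley rats, where sensory neurons of the hind limb have their somata. In the chronic post-ischemia pain (CPIP) group, a tight ring around the ankle had stopped blood flow to the paw and was then cut to allow reperfusion. The Sham group, labelled Con, had the same anesthesia with an open ring that left the flow intact. The CPIP+EA group had the ischemia and EA through needles at the acupoints ST36 and BL60 of both hind limbs, given once a day for 10 days, and all ganglia were collected on day 10. Each group had 3 libraries, made from 3 rats of the group, and no group of needling without current was among the 9 libraries, so needle insertion, handling and current cannot be told apart. Expression was measured as FPKM (fragments counted per kilobase of transcript, divided by the library's mapped fragments), whose sum over genes ranged from 445647 to 482940 per library.

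Retinoic acid is made from vitamin A. Retinol enters the cell, in part through the transporter STRA6, is oxidised to retinaldehyde, and is then oxidised irreversibly to retinoic acid by the enzymes that Aldh1a1, Aldh1a2 and Aldh1a3 encode. CRABP1 and CRABP2 carry retinoic acid in the cytosol, CRABP2 handing it to nuclear receptors and CRABP1 being tied to its breakdown. The receptors RARA, RARB and RARG pair with retinoid X receptors on direct repeats in DNA, and CYP26 enzymes degrade the ligand. In the nervous system, the meninges that cover the brain, the cord and the nerve roots are a known site of Aldh1a2 expression, and retinoic acid signaling has been studied in the outgrowth of axons from sensory neurons.

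The receptors' binding letters were looked up first, since Rarb and Cyp26a1 are textbook direct targets of the receptors. RefSeq promoter windows of the rat assembly GRCr8 (250 bases before and 50 after each gene's start) were searched on both strands for 2 copies of GGTCA or GTTCA in the same direction with 6, 3 or 2 bases between them. The genome build of the expression table is not given in the sources used here, and GRCr8 coordinates serve only to place the sequences. Of 33469 windows, 1.29% held such a repeat, 0.601% with 6 bases between the copies, 0.326% with 3 and 0.379% with 2. Windows were matched by symbol for 48 of the 65 retinoid genes considered below, in 49 windows, and 2 of these windows held a repeat. All 9 member genes had a window, and Rarb was the one among them with a match. Both matches had 6 bases between the copies and are shown with the repeat and its spacer in capitals. The Rarb stretch lies at chr15:11336410-11336439 on the plus strand, with the repeat from base 26 to base 41 of the transcript. The Cyp26a1 stretch lies at chr1:244883712-244883761 on the plus strand, with the repeat read on the opposite strand, from 92 to 77 bases before the start.
Rarb: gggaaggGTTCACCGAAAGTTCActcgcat
Cyp26a1: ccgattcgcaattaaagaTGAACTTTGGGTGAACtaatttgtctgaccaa

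The promoters of the 3 enzymes and of Crabp2, the tested gene of the set with the smallest p against Sham, held no such repeat in these windows. Their last 120 bases before the start are shown to give the sequence context of these genes. Matches to CCAAT (held on either strand by 37.5% of all windows) and to TATAAA (held by 14.2%) are in capitals, and both motifs were chosen after the expression values were seen. The stretches are chr1:227537500-227537619 (plus strand) for Aldh1a1, chr8:80758521-80758640 (plus) for Aldh1a2, chr1:129427644-129427763 (minus) for Aldh1a3 and chr2:175714742-175714861 (plus) for Crabp2. The 3 enzyme genes each held a CCAAT, which Aldh1a1 had at 2 places, all on the strand of the gene, in whose direction each stretch is printed. Crabp2 held a TATAAA from 73 to 68 bases before the start.
Aldh1a1: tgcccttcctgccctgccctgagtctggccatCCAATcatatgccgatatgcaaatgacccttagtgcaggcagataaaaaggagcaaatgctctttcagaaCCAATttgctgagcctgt
Aldh1a2: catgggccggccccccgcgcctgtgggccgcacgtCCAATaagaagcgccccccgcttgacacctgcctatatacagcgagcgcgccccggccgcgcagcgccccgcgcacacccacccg
Aldh1a3: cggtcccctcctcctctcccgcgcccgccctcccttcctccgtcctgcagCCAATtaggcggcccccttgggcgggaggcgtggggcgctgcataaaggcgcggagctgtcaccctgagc
Crabp2: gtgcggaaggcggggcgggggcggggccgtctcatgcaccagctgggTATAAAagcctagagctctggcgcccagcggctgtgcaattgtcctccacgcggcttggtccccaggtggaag

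All 9 genes were expressed in the DRGs, at mean FPKM over the 9 libraries from 1.89 for Stra6 to 33.4 for Crabp2. Among the 17187 genes tested, those that averaged an FPKM of at least 0.1, these means lay above those of 26.1% and 84.1% of genes. In Sham, Aldh1a1 came first with an FPKM of 30.0 ± 8.59 (SD, n = 3), followed by Crabp2 with 21.7 ± 4.20, and the ranges of both genes overlapped. Rarg, with 13.5 ± 0.614, overlapped with neither neighbour. Aldh1a3, Rara, Crabp1, Aldh1a2, Rarb and Stra6 followed in this order, each overlapping with the next, down to 2.47 ± 0.701 for Stra6. In CPIP and in CPIP+EA, Crabp2 stood first and did not overlap with Aldh1a1, which was now second. Below them, CPIP had Rarg (12.6 ± 1.78), then Aldh1a2, Rara, Crabp1 and Aldh1a3 with each range reaching into the next, and Rarb and Stra6 last, of which Rarb did not overlap with Aldh1a3. In CPIP+EA, the ranges from Aldh1a1 (16.6 ± 6.84) through Rarg, Crabp1, Rara, Aldh1a3 and Aldh1a2 to Rarb each overlapped with the next, and Stra6 (1.33 ± 0.274) was apart from Rarb. The ratio of Crabp2 to Aldh1a1 FPKM, a measure chosen after the values were seen, was 0.702, 0.539 and 1.04 (Sham), 1.57, 1.28 and 1.58 (CPIP) and 3.94, 2.28 and 2.03 (CPIP+EA). The 3 groups did not overlap in this ratio, which contains the low Aldh1a1 values on which that gene was chosen.

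**Figure D1:**
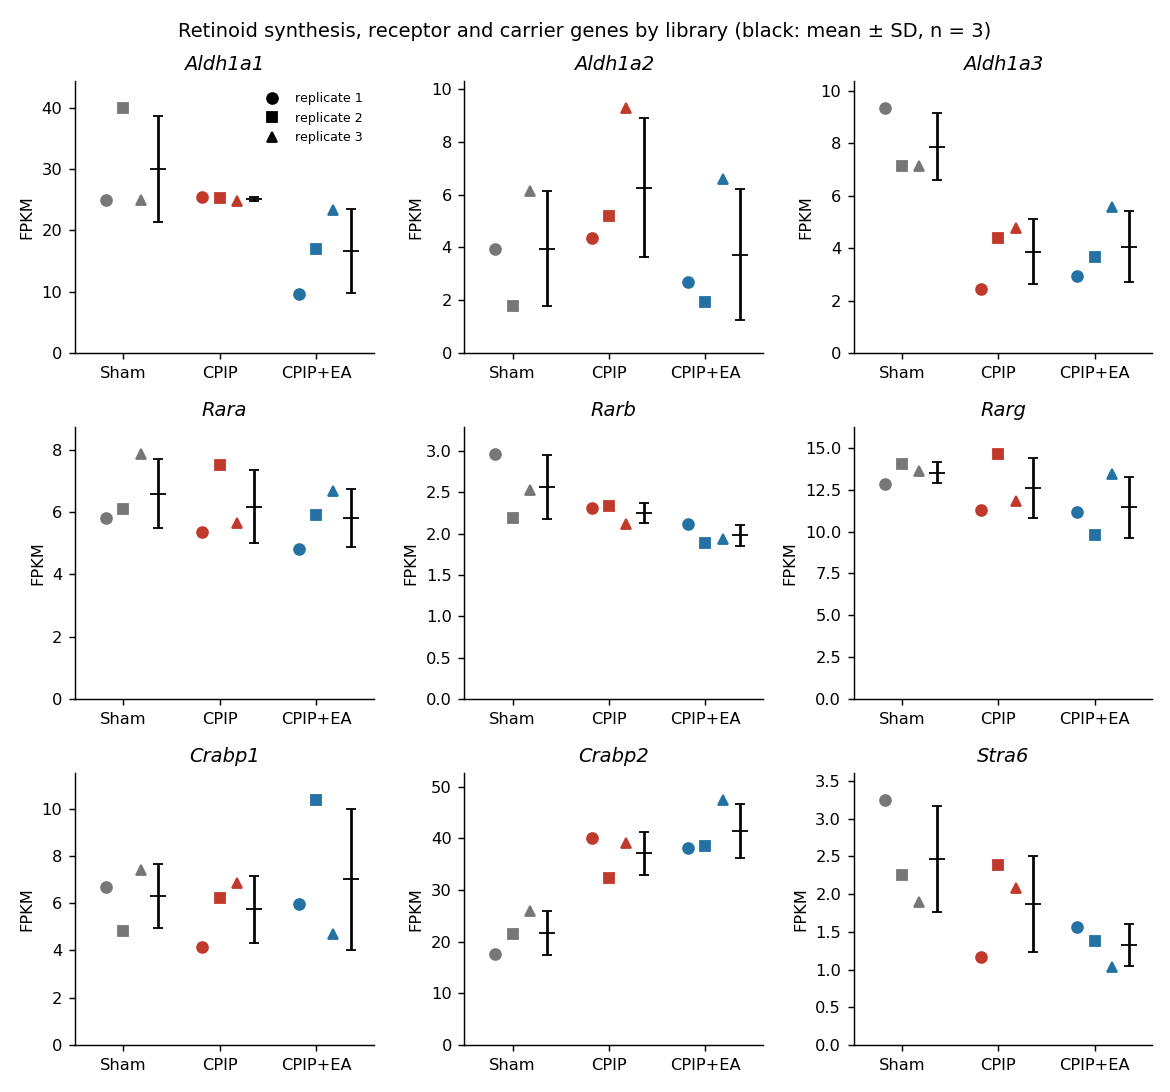
FPKM (vertical axis, linear from 0) of the 9 genes in each of the 9 libraries, by group, with symbols for the replicate number and the mean ± SD (n = 3) in black. Crabp2 is higher in every CPIP and CPIP+EA library than in Sham, Aldh1a3 is lower in each of them, and Aldh1a1 is lower in each CPIP+EA library than in CPIP.

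Aldh1a1, the most abundant of the 3 retinoic acid-forming enzymes in every library, had FPKM values of 25.0, 39.9 and 25.0 (Sham), 25.5, 25.2 and 24.8 (CPIP) and 9.68, 16.9 and 23.4 (CPIP+EA). The CPIP libraries lay very close together, whereas the CPIP+EA libraries spread more than 2-fold, and the highest of them came within 2 FPKM of the lowest CPIP library without reaching it. CPIP and Sham differed by -0.21 ± 0.28 (SE) on the log2(FPKM + 0.5) scale, on which all differences are given. This difference rested on Sham library 2, without which it was 0.01. CPIP+EA lay 0.67 below CPIP, the difference for which the gene was chosen. Leaving out CPIP+EA library 1 brought this difference to -0.33, and leaving out CPIP+EA library 3 to -0.95. Against Sham, a difference that rests on the same low CPIP+EA values, CPIP+EA was at -0.88 ± 0.28, and the groups did not overlap. This became -0.54 without CPIP+EA library 1 and -1.16 without CPIP+EA library 3.

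Aldh1a2, the enzyme of embryonic and meningeal retinoic acid synthesis, had the largest error of the 9 genes. Its FPKM was 3.94, 1.80 and 6.13 (Sham), 4.36, 5.17 and 9.26 (CPIP) and 2.68, 1.94 and 6.57 (CPIP+EA). The third library was the highest in each group, and the groups overlapped in all 3 comparisons. CPIP and Sham differed by 0.66 ± 0.48, a value that rests on the CPIP libraries used in the choice and ran from 0.25 without Sham library 2 to 1.01 without Sham library 3. CPIP+EA lay 0.76 below CPIP, again the difference on which the gene was chosen, and this became -1.21 without CPIP+EA library 3 and -0.45 without CPIP+EA library 2. CPIP+EA and Sham differed by -0.10 ± 0.48, and the sign of this value turned when single libraries were left out.

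Aldh1a3, the least widely expressed of these enzymes, was lower in every library of both CPIP groups than in any Sham library. FPKM values were 9.33, 7.15 and 7.14 (Sham), 2.46, 4.38 and 4.76 (CPIP) and 2.96, 3.66 and 5.57 (CPIP+EA). CPIP and CPIP+EA overlapped. The difference of CPIP from Sham was -0.97 ± 0.26 (unadjusted p = 0.00441), but the adjusted p of 0.202 (limma with Benjamini-Hochberg adjustment) missed the threshold of 0.01. It ranged from -1.13 to -0.71 with single libraries left out. CPIP+EA differed from Sham by -0.91 ± 0.26 (adjusted p = 0.180) and from CPIP by 0.07 ± 0.26, with a 95% interval from -0.52 to 0.65.

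The 3 enzymes summed to an FPKM of 41.8 ± 6.09 (Sham), 35.3 ± 3.28 (CPIP) and 24.4 ± 10.2 (CPIP+EA), SD with n = 3. The CPIP+EA libraries held 15.3, 22.5 and 35.5, the last of which lay inside the CPIP range of 32.3 to 38.8. Aldh1a1 made up 63.2 to 81.7% of the sum in single libraries, with overlapping groups. The sum thus contains the low CPIP+EA values for which Aldh1a1 and Aldh1a2 were chosen. Aldh1a3, the enzyme not chosen for lower values after EA, averaged 3.87 in CPIP and 4.06 in CPIP+EA. The rat paralog Aldh1a7, whose sequence is close to that of Aldh1a1, was listed at an FPKM of at most 0.45, so that adding it left the Aldh1a1 differences at -0.22, -0.67 and -0.89.

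Cell type markers also differed between these libraries, in step with Aldh1a1 or Aldh1a2 in some and not in others, and in these bulk samples fewer cells of a type and less RNA per cell cannot be told apart. Of 18 markers of meningeal fibroblasts, led by Ptgds, Ogn and Igfbp2, 17 were tested and 16 of these had lower values in CPIP+EA than in CPIP (median difference -0.40, against 0.01 over all genes). Of the 17 markers, 4 did not overlap between these groups, beside 8.23% of all genes. At an unadjusted p under 0.05 (limma) 1 was lower, beside 4.29% of all genes. The summed FPKM of the list was 341 to 1218 (Sham), 770 to 982 (CPIP) and 421 to 669 (CPIP+EA), so that the sums of CPIP and CPIP+EA did not overlap. Ptgds alone made up most of each sum, at 228 to 1020 (Sham), 623 to 804 (CPIP) and 330 to 531 (CPIP+EA). Sham library 2 had the lowest sum, 341, with the lowest Aldh1a2 and the highest Aldh1a1 value of all libraries. The 10 general fibroblast markers, led by Dcn, Col3a1 and Col1a1, were lower in CPIP+EA than in CPIP in 9 of 10 cases (median -0.34). At an unadjusted p under 0.05 (limma) 1 was lower, beside 4.29% of all genes. Against Sham, all 10 were lower in CPIP (median -0.18) and in CPIP+EA (median -0.53). At such a p, 1 was lower in CPIP and 6 in CPIP+EA, beside 8.66 and 12.2% of all genes. The sum of these markers was 677, 590 and 1177 in CPIP+EA against 877 to 1171 in CPIP. Sham library 2 had the highest such sum, 1366, and the highest Aldh1a1 value, whereas CPIP+EA libraries 1 and 2 stood in the reverse order of their Aldh1a1 values.

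Of 8 Schwann cell markers, among them Pmp22 and Mbp, 7 had lower values in CPIP+EA than in CPIP (median -0.43), and the sums overlapped (4971 to 9722 against 6991 to 12303). All 8 neutrophil markers, led by S100a9, S100a8 and Camp, were highest in CPIP+EA library 3, with a sum of 630 against 34.9 to 266 in the other libraries. That is also the CPIP+EA library with the highest Aldh1a1 and Aldh1a2, but CPIP library 3, with the lowest neutrophil sum, had the highest Aldh1a2 of all. The erythroid markers summed to 1111, 3424 and 1805 (Sham), 1275, 2168 and 579 (CPIP) and 645, 2014 and 5052 (CPIP+EA). They stood in the order of Aldh1a1 within CPIP+EA and were highest within Sham in library 2, as Aldh1a1 was, whereas the 3 CPIP libraries differed in them at nearly equal Aldh1a1. No defining marker of the fibroblast, Schwann cell, neutrophil or erythroid lists was at 0 in all libraries, although the meningeal marker Dpep1 was listed at 0 in some. The part of these cell types in the Aldh1a1 and Aldh1a2 values was not tested.

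**Figure D2:**
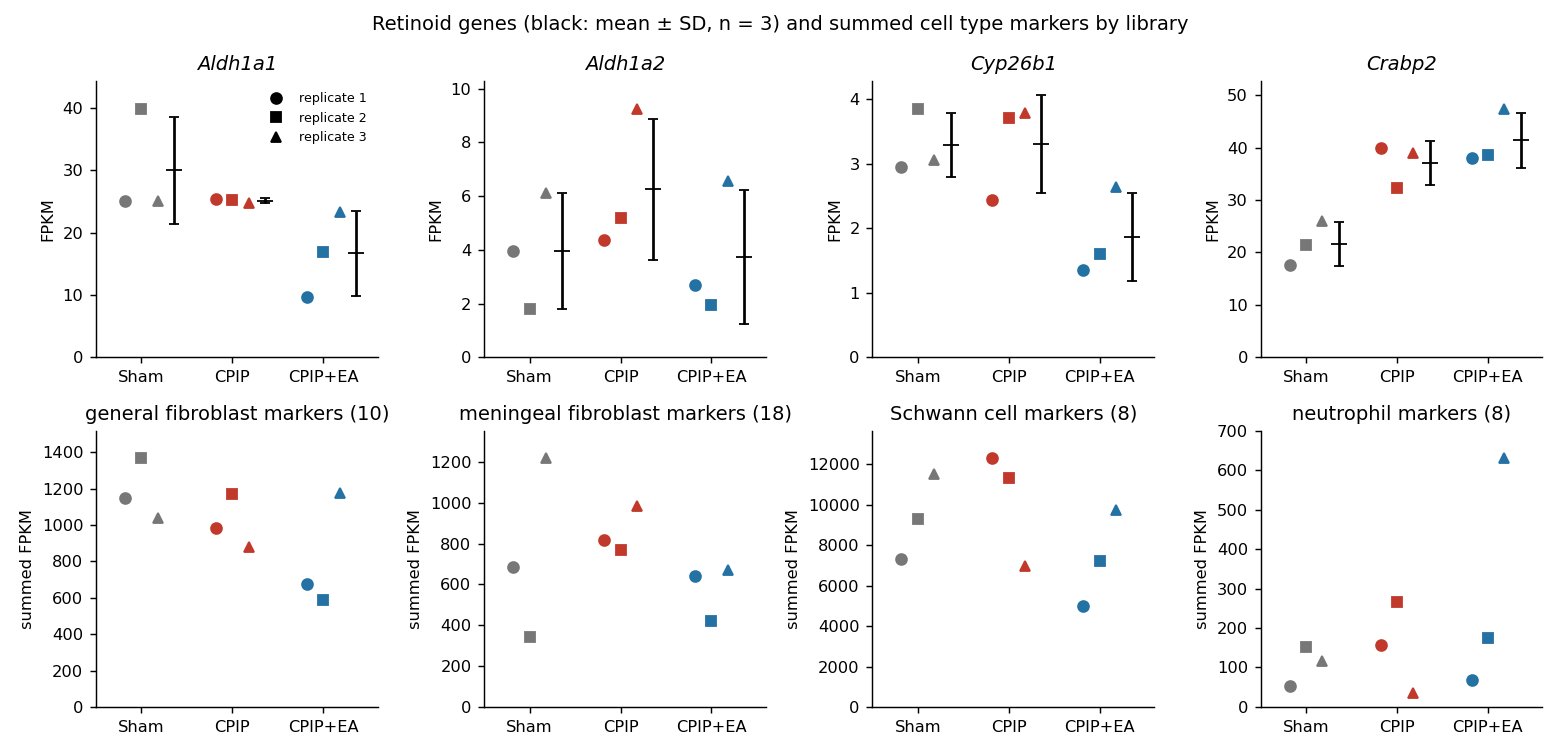
Upper row, FPKM of Aldh1a1, Aldh1a2, Cyp26b1 and Crabp2 by library with the mean ± SD (n = 3) in black. Lower row, the summed FPKM of 4 lists of cell type markers in the same libraries, with the number of markers in parentheses and symbols for the replicate number. CPIP+EA library 3 stands above the other CPIP+EA libraries for all 4 genes and each of the 4 marker lists.

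The tissue label was checked with the sensory neuron markers, led by Nefl, Uchl1 and Tubb3, whose summed FPKM was 8721 to 10619 over the 9 libraries. Of these 11 genes, 8 were lower and 3 higher in CPIP than in Sham, and 7 did not overlap between both groups, beside 15.9% of all genes. Their part in the Aldh1a3 and Crabp2 differences from Sham was not tested. The other lists were led by Itgb4, Slc2a1 and Cldn1 for perineurial cells, Glul, Fabp7 and Kcnj10 for satellite glia, Aif1, Csf1r and Cd68 for macrophages, Hba1, Hbb and Hbb-b1 for erythroid cells, Cldn5, Cdh5 and Pecam1 for endothelium, Rgs5, Acta2 and Pdgfrb for mural cells, Fabp4, Cidec and Adipoq for adipocytes, Hapln2, Mog and Mobp for oligodendrocytes, and Acta1, Tnnt3 and Ckm for skeletal muscle. Over the 14 lists, the summed markers did not overlap between CPIP and Sham for 1 (oligodendrocytes), between CPIP+EA and CPIP for 2 (meningeal fibroblasts and oligodendrocytes), and between CPIP+EA and Sham for 0.

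The receptors differed between groups by -0.30 to -0.08, with SEs of 0.12 to 0.16, and all 9 differences were negative. They are not independent, since for each gene the difference of CPIP+EA from Sham is the sum of its other differences. Rarg, with an FPKM of 12.9, 14.1 and 13.6 (Sham), 11.3, 14.6 and 11.8 (CPIP) and 11.2, 9.78 and 13.4 (CPIP+EA), was the most abundant and made up 55.7 to 62.9% of the 3 receptors' sum. The groups overlapped in each comparison, and the 95% intervals ran from -0.39 to 0.18 for CPIP against Sham and from -0.42 to 0.15 for CPIP+EA against CPIP. Left-out libraries moved the first difference to between -0.21 (without CPIP library 2) and -0.04 (without CPIP library 1), and the second to between -0.25 (without CPIP+EA library 3) and -0.03 (without CPIP library 2). Rara, the receptor expressed in most tissues, had 5.82, 6.10 and 7.86 (Sham), 5.37, 7.51 and 5.65 (CPIP) and 4.82, 5.90 and 6.68 (CPIP+EA). Its differences of -0.09 ± 0.16 and -0.08 ± 0.16 changed sign when single libraries were left out.

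Rarb, the receptor gene that retinoic acid itself is known to induce and the one with the repeat printed above, was the least abundant of the 3. FPKM values were 2.96, 2.19 and 2.52 (Sham), 2.31, 2.33 and 2.11 (CPIP) and 2.12, 1.88 and 1.93 (CPIP+EA). Each CPIP+EA library was below each Sham library (-0.30 ± 0.12, unadjusted p = 0.0312, adjusted p = 0.340 with limma), and CPIP lay between them and overlapped with both. CPIP differed from Sham by -0.15 (95% interval -0.41 to 0.12), or by -0.05 without Sham library 1 and -0.23 without Sham library 2, and CPIP+EA from CPIP by -0.15 (-0.41 to 0.11). The sum of the 3 receptors was 22.7 ± 1.23 (Sham), 21.0 ± 3.00 (CPIP) and 19.2 ± 2.43 (CPIP+EA), with overlapping values.

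Crabp2, which delivers retinoic acid to the nucleus, had the smallest p against Sham of the 7 genes tested. Its FPKM was 17.5, 21.5 and 25.9 (Sham), 40.0, 32.3 and 39.1 (CPIP) and 38.1, 38.6 and 47.4 (CPIP+EA). The highest Sham library was below the lowest library of either other group. CPIP exceeded Sham by 0.77 ± 0.15, a 1.71-fold difference, with an unadjusted p of 0.000520 and an adjusted p of 0.0566 (limma). CPIP+EA exceeded Sham by 0.93 ± 0.15, 1.90-fold, with an adjusted p of 0.0179, which also missed the threshold of 0.01. Both comparisons used the same Sham libraries. CPIP+EA and CPIP differed by 0.15 ± 0.15 (95% interval -0.18 to 0.49), or by 0.05 without CPIP+EA library 3. Over the alternatives the adjusted p of CPIP against Sham ranged from 0.0408 to 0.237 and that of CPIP+EA against Sham from 0.0135 to 0.0758.

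Crabp1, its paralog, overlapped between all groups. FPKM values of 6.70, 4.82 and 7.43 (Sham), 4.15, 6.22 and 6.86 (CPIP) and 5.95, 10.4 and 4.69 (CPIP+EA) spread widely within each. The differences were -0.13 ± 0.28 for CPIP against Sham and 0.22 ± 0.28 for CPIP+EA against CPIP, and the second turned to -0.08 without CPIP+EA library 2, the highest of all. The ratio of Crabp2 to Crabp1 was 2.62 to 4.46 in Sham and 5.19 to 9.64 in CPIP, whereas CPIP+EA spanned 3.72 to 10.1.

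Stra6, the transporter, was the lowest of the set. It had an FPKM of 3.25, 2.25 and 1.90 (Sham), 1.16, 2.38 and 2.08 (CPIP) and 1.57, 1.38 and 1.03 (CPIP+EA). CPIP+EA lay below Sham without overlap (-0.69 ± 0.24, unadjusted p = 0.0186, adjusted p = 0.282 with limma). CPIP overlapped with both other groups. It differed from Sham by -0.33 ± 0.24, which became -0.10 without CPIP library 1, and CPIP+EA differed from it by -0.35 ± 0.24, which became -0.59 without CPIP library 1 and -0.19 without CPIP library 2.

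**Figure D3:**
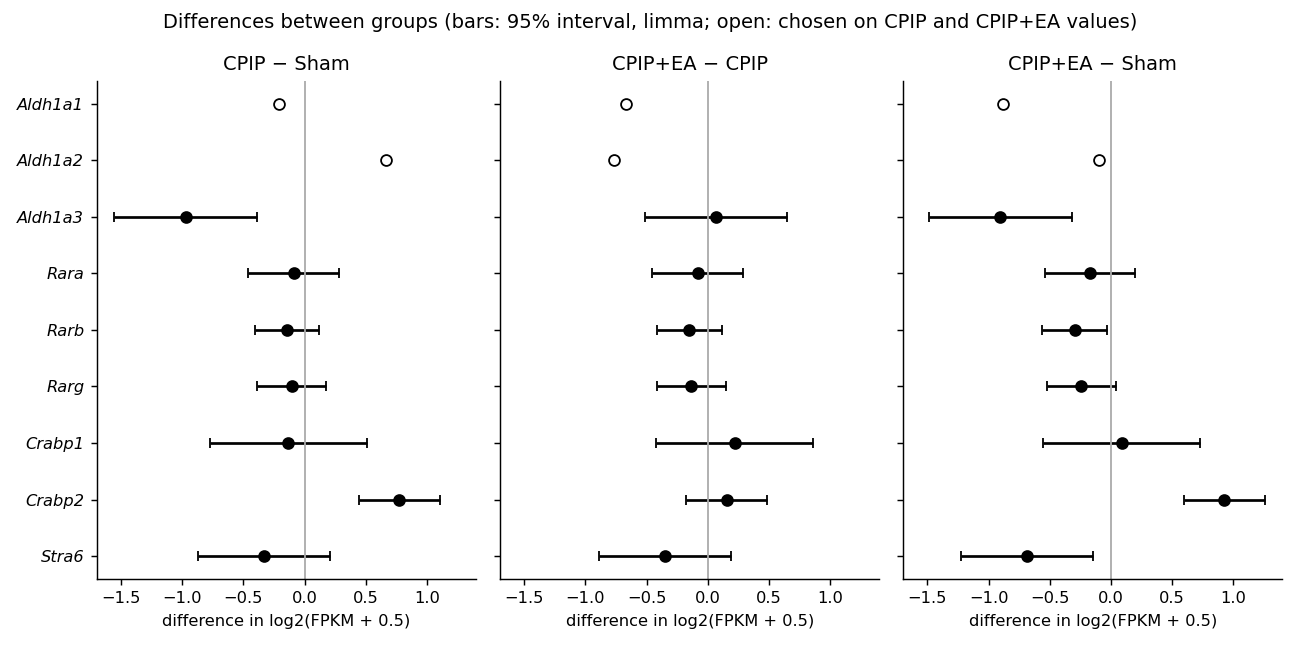
Differences between groups for the 9 genes on the log2(FPKM + 0.5) scale (horizontal axis), with 95% intervals from limma as bars. Open circles without a bar mark Aldh1a1 and Aldh1a2, which were chosen on their CPIP and CPIP+EA values. Crabp2 lies above 0 and Aldh1a3 below 0 against Sham in both CPIP groups, and the intervals of all 7 genes tested between CPIP+EA and CPIP span 0.

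The whole set was picked with earlier results of these data known, so that its shares beside all genes are a description. Counted over the 7 genes other than Aldh1a1 and Aldh1a2, 0 passed an adjusted p under 0.01 with a change of at least 1.5-fold (limma) in CPIP against Sham, where 0.355% of all genes tested did. At an unadjusted p under 0.05, 1 gene was higher (Crabp2) and 1 lower (Aldh1a3), against 8.66% of all genes, and these 2 did not overlap between the groups, against 15.9%. In CPIP+EA against CPIP, 0 of the 7 genes passed, as did 0% of all genes. No gene of the 7 had an unadjusted p under 0.05, a level that 4.29% of all genes reached, and none of them was free of overlap, as 8.23% of all genes were. In CPIP+EA against Sham 0 of the 7 passed, beside 0.483% of all genes. There, 1 was higher (Crabp2) and 3 were lower (Aldh1a3, Rarb and Stra6) at an unadjusted p under 0.05, and these 4 did not overlap between the groups. Over all genes, 12.2% had such a p and 16.2% did not overlap.

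The rest of the pathway was read from 56 other genes, also picked with earlier results of these data known, of which 50 passed the filter on low values. In each comparison 0 of the 50 passed the adjusted threshold in limma. At an unadjusted p under 0.05, 5 were higher and 2 lower in CPIP than in Sham (14.0%), 2 higher and 2 lower in CPIP+EA than in CPIP (8%), and 8 higher and 8 lower in CPIP+EA than in Sham (32.0%), beside 8.66, 4.29 and 12.2% of all genes. Median differences were -0.01, -0.04 and -0.06, beside -0.01, 0.01 and 0.00 over all genes.

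**Figure D4:**
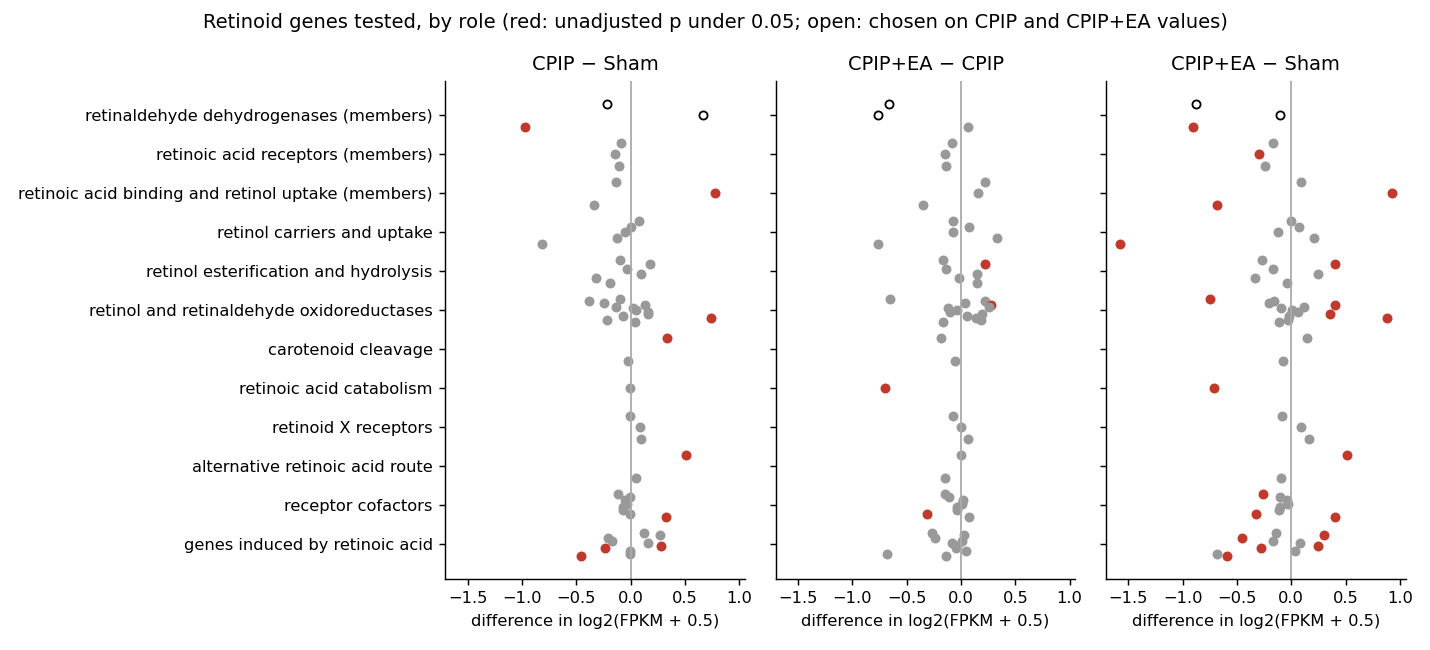
Differences between groups on the log2(FPKM + 0.5) scale (horizontal axis) for the 59 retinoid genes above the filter, grouped by role, 1 point per gene. Red points have an unadjusted limma p under 0.05, none passed an adjusted p under 0.01 with 1.5-fold, and open points mark Aldh1a1 and Aldh1a2, which were chosen on their CPIP and CPIP+EA values. Rdh16 is the rightmost point among the oxidoreductases against Sham, and Cyp26b1 is the one catabolic enzyme that could be tested.

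Among the enzymes that act before the retinaldehyde dehydrogenases, Rdh16, a retinol dehydrogenase, had the smallest p. Its FPKM was 1.29, 2.00 and 1.71 (Sham), 3.20, 2.89 and 3.19 (CPIP) and 3.46, 3.35 and 3.53 (CPIP+EA). Neither CPIP group overlapped with Sham, and they exceeded it by 0.74 ± 0.13 (adjusted p = 0.0406) and 0.88 ± 0.13 (adjusted p = 0.0121, limma), short of the threshold of 0.01. Its paralog Rdh7, with which short reads could be shared, was listed at an FPKM of at most 0.35. Rdh11, Dhrs4 and Rdh14 were the most abundant of the 15 oxidoreductases, with mean FPKM of 25.7, 11.1 and 10.3. Dhrs4, a retinaldehyde reductase, was higher in each CPIP+EA library (11.9, 12.9 and 14.3) than in CPIP (10.2, 10.5 and 11.3), by 0.27 ± 0.08 (unadjusted p = 0.00741, adjusted p = 0.996 with limma). Its Sham libraries, at 9.46, 9.59 and 10.1, lay below both other groups without overlap, by 0.13 ± 0.08 for CPIP (adjusted p = 0.776) and 0.40 ± 0.08 for CPIP+EA (adjusted p = 0.0504, limma).

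The retinol carriers Rbp4 and Rbp2, with mean FPKM of 14.2 and 4.94, overlapped between groups. Dgat1, which can esterify retinol besides its main part in triglyceride synthesis, was at 11.1, 10.2 and 11.5 (CPIP) against 12.7, 12.9 and 13.0 (CPIP+EA), a difference of 0.22 ± 0.08 (unadjusted p = 0.0215, adjusted p = 0.996 with limma). In Sham it was at 8.60, 10.2 and 9.94, which overlapped with CPIP (0.18 ± 0.08, adjusted p = 0.586) but not with CPIP+EA (0.41 ± 0.08, adjusted p = 0.0507, limma). The lipases Pnpla2 and Lipe, with means of 17.5 and 8.70, had an unadjusted p above 0.05 in all 3 comparisons. Bco1, which cleaves beta-carotene to retinaldehyde, was listed at 0.72, 0.87 and 0.76 in Sham and 1.10, 1.21 and 1.04 in CPIP (0.33 ± 0.12, adjusted p = 0.429 with limma), while Bco2 differed by -0.02.

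On the side of removal, Cyp26b1 was the one CYP26 gene above the filter, since Cyp26a1 and Cyp26c1 had mean FPKM of 0.0633 and 0.0233. Cyp26b1 had 2.95, 3.85 and 3.06 (Sham), 2.43, 3.70 and 3.78 (CPIP) and 1.35, 1.60 and 2.64 (CPIP+EA). The lowest values were those of CPIP+EA libraries 1 and 2, and the groups overlapped between CPIP+EA and CPIP but not between CPIP+EA and Sham. CPIP+EA was below CPIP by 0.70 ± 0.22 (unadjusted p = 0.0112, adjusted p = 0.996) and differed from Sham by -0.71 ± 0.22 (adjusted p = 0.224, limma). Its CPIP+EA libraries stood in the same order as those of Aldh1a1 and as the summed Schwann cell, neutrophil, erythroid, mural cell and adipocyte markers, whose part in this value was not tested.

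The retinoid X receptors, partners of the retinoic acid receptors, had an unadjusted p above 0.05 in each comparison, with differences from -0.08 to 0.16. Rxrb, Rxrg and Rxra had mean FPKM of 21.4, 12.1 and 7.97 and summed to 40.1 ± 1.84 (Sham), 42.2 ± 1.23 (CPIP) and 42.3 ± 0.826 (CPIP+EA). Fabp5, which carries retinoic acid to the receptor PPARD as well as binding fatty acids, was by far the most abundant of the pathway. Its FPKM was 322, 346 and 326 (Sham), 446, 447 and 522 (CPIP) and 434, 523 and 462 (CPIP+EA). Both CPIP groups were above Sham without overlap, by 0.50 ± 0.10 (adjusted p = 0.0566) and 0.51 ± 0.10 (adjusted p = 0.0388, limma). Ppard itself, with a mean FPKM of 10.3, differed by 0.04 between CPIP and Sham, or by 0.01 to 0.10 with single libraries left out. Its CPIP+EA values lay below those of CPIP without overlap, as for 8.23% of all genes, at -0.14 (adjusted p = 0.996, limma). The ratio of Fabp5 to Crabp2 was 12.6 to 18.4 (Sham), 11.1 to 13.8 (CPIP) and 9.75 to 13.6 (CPIP+EA).

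Among the 8 cofactors, the coactivators Ncoa2 and Ncoa1 had mean FPKM of 13.5 and 12.6. The corepressor Nrip1, itself inducible by retinoic acid, had 6.72, 6.43 and 6.50 (Sham), 8.29, 8.05 and 8.66 (CPIP) and 8.89, 9.48 and 8.07 (CPIP+EA), without overlap with Sham (0.32 ± 0.08 and 0.40 ± 0.08, adjusted p = 0.144 and 0.0470 with limma).

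Genes that retinoic acid is known to induce lay on both sides of 0. Of 11 symbols on 12 rows, 10 rows were tested, and between CPIP and Sham 1 was higher and 2 were lower at an unadjusted p under 0.05 (8.66% of all genes), with a median difference of -0.01. In CPIP+EA against CPIP 0 of them had such a p (4.29% of all genes), and in CPIP+EA against Sham 2 were higher and 3 lower (12.2% of all genes), with a median of -0.15. Tgm2, tissue transglutaminase, had 11.6, 11.4 and 11.2 (Sham), 9.10, 7.25 and 8.25 (CPIP) and 6.53, 6.53 and 9.38 (CPIP+EA). Neither CPIP group overlapped with Sham, at -0.46 ± 0.14 and -0.59 ± 0.14 (adjusted p = 0.296 and 0.0871, limma). Rarres1 was lower in CPIP (40.5, 45.5 and 46.5) than in Sham (49.0, 54.9 and 52.4), by 0.24 ± 0.07 on this scale, whereas the homeobox gene Meis2 had 5.09, 6.45 and 5.96 in CPIP against 5.04, 4.84 and 4.27 in Sham. Rarres2, which encodes chemerin, was the most abundant with a mean FPKM of 82.9 and differed by -0.01 between CPIP and Sham.

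The genes whose values ran most like those of Aldh1a1 over the 9 libraries, among 13914 genes that averaged an FPKM of at least 1, were Ntn4 (Pearson r = 0.969), Fkbp9 (0.961), Hacd1 (0.941), Hoxc8 (0.926) and Crispld2 (0.915). Ntn4, which encodes the secreted protein netrin 4, had 9.42, 11.9 and 9.50 (Sham), 8.22, 9.48 and 7.95 (CPIP) and 4.47, 6.80 and 8.99 (CPIP+EA). For Aldh1a2 they were Osr1 (0.935), Rbm3 (0.927), Coch (0.917), Gjb6 (0.914) and Slc22a8 (0.902), of which Gjb6 and Slc22a8 were also on the list of meningeal fibroblast markers. Slc22a8, an organic anion transporter, had 1.25, 0.37 and 1.46 (Sham), 1.86, 1.34 and 2.04 (CPIP) and 0.59, 0.63 and 1.36 (CPIP+EA). These correlations describe the same 9 libraries, which differ in group and in cell type markers.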

How the data were processed

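The 9 libraries (3 Sham, 3 CPIP and 3 CPIP+EA) took their groups and replicate numbers from the sample titles. Read filtering by the authors used SOAPnuke, and the deposited unit is FPKM per gene, rounded to 2 decimals. The aligner, the annotation and the genome build are not given in the sources used here. Without read counts, the counting error of an FPKM value is unknown, and precision is set by the replicate libraries. The table also carries, for pairs of groups, log2 ratios with P and Q columns made by the authors, which were not used.

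A pseudocount of 0.5 was added, and log2 values were tested by limma 3.58.1 under R 4.3.3, in 1 fit of all 9 libraries with a mean-variance trend. Tested were 17187 genes, those that averaged an FPKM of 0.1 or more. This scale understates changes of low genes. P-values are two-sided and adjusted over all genes by the Benjamini-Hochberg method. A gene was called at an adjusted p under 0.01 and a change of at least 1.5-fold, a threshold that the study set on the Q-values of its own test. With that test the study reported genes that differed between CPIP+EA and CPIP, where this fit called 0% of all genes. The fit was tested on simulated data. The libraries come from 3 rats per group, and p-values measure only the spread between these libraries. Tables were made in Python 3.11.15 (pandas 2.3.3, numpy 2.4.6), and matplotlib 3.10.9 drew the figures.

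The member genes and all lists were chosen with earlier results of these data known. Named with values were the 9 member genes, other retinoid and aldehyde dehydrogenase genes called in any comparison, with an unadjusted p under 0.05 in CPIP against Sham or CPIP+EA against CPIP, or among the 3 most abundant of their list, the 5 genes most like Aldh1a1 and Aldh1a2, and the 3 most abundant markers of each list. A few genes that this rule takes in are not reported here. As alternatives, the pseudocount was set to 0.1 or 1, the filter was dropped or raised to an average FPKM of 1, values were put on a TPM scale, centred on the median or quantile normalized, and the trend was left out or made robust. Further alternatives took the replicate number as a block, fitted only the 2 groups compared, used an adjusted p under 0.05 with no fold threshold, or left out each library. The sum of Aldh1a1 and Aldh1a7 was added after the data were seen.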

Additional observations from a re-analysis of the deposited data

How the results depend on the processing

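In CPIP+EA against CPIP 0 retinoid genes were called under any alternative, but at most 2 of all genes were, so that this count says nothing about stability. An adjusted p under 0.05 with no fold threshold called 1 in CPIP against Sham (Rdh16) and 4 in CPIP+EA against Sham (Crabp2, Fabp5, Nrip1 and Rdh16). Quantile normalization called 1 in CPIP+EA against Sham (Rdh16). With single libraries left out the count there ranged from 0 to 1, the 1 being Tgm2 without CPIP+EA replicate 3, and the others stayed at 0. The cause was not tested. The replicate number as a block called 0 retinoid genes in each comparison, and over all genes 26, 0 and 42 instead of 61, 0 and 83. Correlations of deviations from the group means lay between -0.24 and 0.30 for same-numbered libraries and between -0.22 and 0.28 for libraries of unlike number. Whether the numbers pair the samples cannot be told from these values.

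Among the 9 member genes, signs turned only with a library left out, for the following differences, given by their range over the libraries left out. For CPIP against Sham it was -0.32 to 0.0074 for Aldh1a1 (turned without Sham replicate 2), -0.23 to 0.034 for Rara (Sham replicate 3) and -0.30 to 0.065 for Crabp1 (CPIP replicate 1). For CPIP+EA against CPIP it was -0.19 to 0.25 for Aldh1a3 (CPIP replicate 1 and, at -0.16, CPIP+EA replicate 3), -0.18 to 0.058 for Rara (CPIP replicate 2 and, at 0.04, CPIP+EA replicate 1) and -0.083 to 0.45 for Crabp1 (CPIP+EA replicate 2). For CPIP+EA against Sham it was -0.55 to 0.25 for Aldh1a2 (Sham replicate 3 and, at 0.03 and 0.22, CPIP+EA replicates 1 and 2) and -0.22 to 0.32 for Crabp1 (CPIP+EA replicate 2 and, at -0.08, Sham replicate 2). Signs also turned for other retinoid genes, the largest such difference being that of Stra8, named after its values were seen, which turned from -0.68 to 0.04 in CPIP+EA against CPIP without CPIP replicate 1, and from -0.69 to 0.02 in CPIP+EA against Sham without Sham replicate 2.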

Other observations

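Of 16 aldehyde dehydrogenases other than the 3 member enzymes, all tested, 1 was called, Aldh1l2 in CPIP+EA against Sham, where 0.483% of all genes were. In that comparison 4 of the 16 did not overlap between the groups, beside 16.2% of all genes. Aldh1l2, the mitochondrial enzyme of folate metabolism that oxidises 10-formyltetrahydrofolate, had an FPKM of 1.08, 0.83 and 1.17 (Sham), 1.89, 2.12 and 2.22 (CPIP) and 2.53, 2.45 and 2.21 (CPIP+EA). It rose by 0.93 ± 0.12 in CPIP+EA against Sham (adjusted p = 0.00683, limma), and CPIP exceeded Sham by 0.76 ± 0.12 (adjusted p = 0.0261), without overlap in either case. Aldh2, Aldh3a2 and Aldh7a1 were the most abundant, with mean FPKM of 38.8, 34.7 and 19.8, and had an unadjusted p above 0.05 in each comparison. Aldh3a1 had a low FPKM of 0.42, 0.39 and 0.29 (Sham), 0.35, 0.57 and 0.43 (CPIP) and 0.18, 0.35 and 0.21 (CPIP+EA). Its groups overlapped, and CPIP+EA differed from CPIP by -0.35 ± 0.14 (unadjusted p = 0.0342, adjusted p = 0.996 with limma).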
